A study of Felis catus with 3 samples.

Results

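The transcripts of the feline mitochondrial genome were examined in 3 noninduced adipose-derived mesenchymal stem cell (ASC) lines. The members were the last 37 of the 21529 genes in the deposited tables, ENSFCAG00000032043 to ENSFCAG00000032079 when sorted by Ensembl identifier. The files give identifiers and values without gene names, so names were given by position in the standard vertebrate mitochondrial order, which starts at the phenylalanine tRNA and the 12S rRNA and ends at the proline tRNA. By this order the members were 13 mRNA, 2 rRNA and 22 tRNA genes. Each line was a primary culture from the subcutaneous fat of a different cat, labelled Gray_Boy, Luna and SPF2 and called Feline ASC 1, 2 and 3 here. All cultures were untreated, were grown in MEMα with fetal bovine serum and were harvested at passages 3 to 4 by the labels, and the ages of the cats were not given in the sources used here. The 3 lines thus formed 1 group with 1 library per line, and no line served as a control. The paper took fat from specific pathogen-free (SPF) and from client-owned cats, without stating which kind gave each sequenced line. A difference between these kinds could not be told apart from one between lines.

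The mitochondrial genome is a small circle of DNA, present in many copies per cell, that encodes core subunits of the respiratory chain and the RNAs needed to translate them. Each strand is transcribed into long precursors, and the tRNAs that lie between most of the genes mark where these precursors are cut. Most of the mRNAs then receive short poly(A) tails. ATP8 with ATP6 and ND4L with ND4 are not cut apart, since the reading frames of each pair overlap and stay on a shared transcript. ND6 is the mRNA gene of the opposite, light strand, and whether its transcripts carried such tails in these cells was not tested.

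The values fitted the named order at every position. All 22 positions assigned to tRNA genes were listed at 0 FPKM, a unit that divides the fragments of a gene by its length and by the size of the library, in every line. All 15 positions assigned to mRNA or rRNA genes were above 0 in every line. Over the whole table, 29.0% of genes were listed at 0 in all lines. When the same order was moved by 1 row, 14 of 37 positions matched the zeros, against 37 of 37 without the move. In the RefSeq annotation of a later cat assembly, the 37 mitochondrial genes had the same class at 37 positions and the same symbol at the 13 mRNA positions. That annotation does not pair its genes with the identifiers of the files and gives the rRNA and tRNA genes by locus tag, so the names here still rest on order. Mature tRNAs are short and carry no poly(A) tail, and the libraries were made with oligo(dT) beads, so a listed 0 does not measure how much tRNA the cells held.

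**Figure D1:**
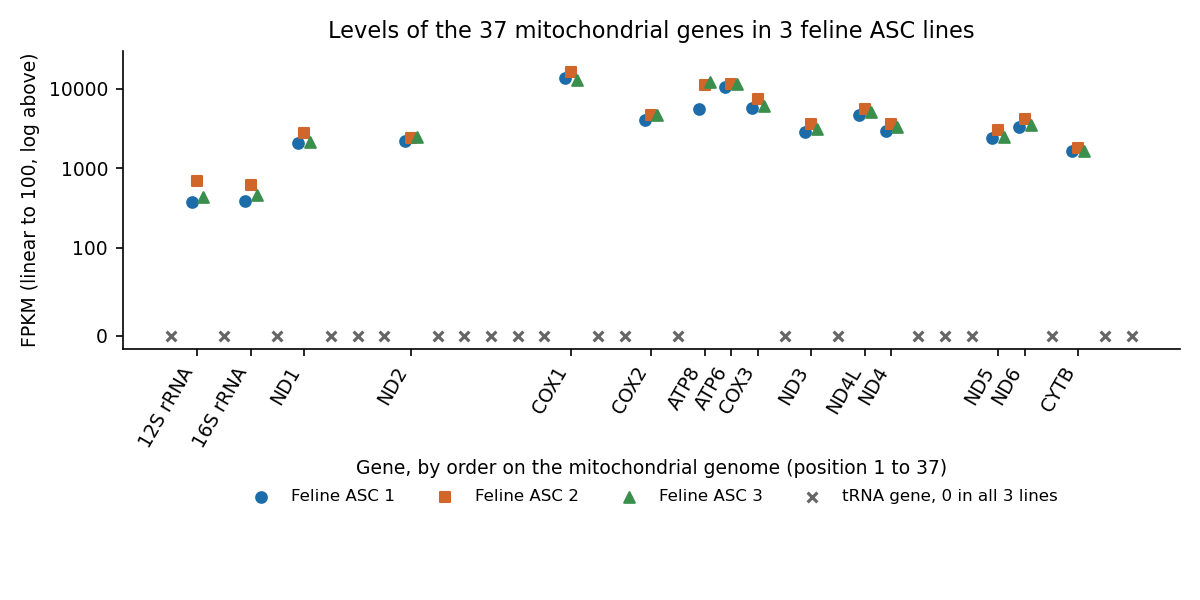
FPKM of each mitochondrial gene in Feline ASC 1 (circles), 2 (squares) and 3 (triangles), in the named order along the genome, on an axis that is linear to 100 FPKM and logarithmic above. The 13 mRNA genes lie above both rRNA genes in every line, and the 22 tRNA genes, drawn as crosses, lie at 0.

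The summed FPKM of the mitochondrial genes was 61942 in Feline ASC 1, 79069.9 in the second line and 71564 in the third. These sums were 9.96%, 11.5% and 11.2% of the summed FPKM of all genes in the respective lines, with a mean of 10.9 ± 0.8% (SD, n = 3 lines). A share of summed FPKM counts transcripts per length and is not the share of sequenced fragments. All 13 mRNA genes were among the 50 genes of highest mean FPKM, from rank 1 for COX1 to rank 49 for CYTB. The values are not counts, so the depth behind them is unknown and no intervals for counting error are given. In bulk RNA, fewer mitochondria, fewer genome copies and less RNA per copy cannot be told apart.

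Complex IV (cytochrome c oxidase) passes electrons to oxygen, and its 3 catalytic-core subunits are mitochondrially encoded. COX1 (ENSFCAG00000032058), which holds the oxygen-reducing site, had 13424, 16039 and 12844 FPKM in Feline ASC 1, 2 and 3. It was the highest of all 21529 genes in each of the 3 lines. COX2 (ENSFCAG00000032061), the subunit that takes electrons from cytochrome c, had 3991, 4683 and 4724 FPKM in Feline ASC 1, 2 and 3. COX3 (ENSFCAG00000032065), the third core subunit, had 5782, 7510.4 and 6076 FPKM. The order COX1 over COX3 over COX2 held in all 3 lines. Within a line, COX1 was 3.36, 3.42 and 2.72 times as high as COX2, and 2.32, 2.14 and 2.11 times as high as COX3.

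Complex V (ATP synthase) uses the proton gradient to make ATP, and ATP6 and ATP8 encode 2 subunits of its membrane part. ATP6 (ENSFCAG00000032064), which forms part of the proton path, had 10473, 11546 and 11456 FPKM in Feline ASC 1, 2 and 3. On the deposited scale, its coefficient of variation of 5.34% was the lowest of the 13 mRNA genes. This did not hold on every scale. With each line rescaled to the same total (TPM), the highest line was 1.07 times the lowest for ATP6 and 1.01 times for CYTB. ATP8 (ENSFCAG00000032063), a small subunit needed for assembly of the membrane part, had 5595, 11196 and 11959 FPKM in the same lines. Feline ASC 1 stood apart for ATP8, with the other two lines close together at about the level of ATP6. The coefficient of variation of ATP8, 36.3%, was the highest of the 13 mRNA genes.

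The ATP8 difference was not shared by its neighbour on the same transcript. The ratio of ATP8 to ATP6 was 0.534 in Feline ASC 1 against 0.970 and 1.04 in the other lines, a 1.95-fold range between lines. In the other overlapping pair, the ratio of ND4L to ND4 was 1.57, 1.57 and 1.52, a 1.03-fold range. ATP8 is the shortest of the 13 mRNA genes and overlaps ATP6, and how the counting divided fragments between overlapping genes is not given in the sources used here. The part of gene length and overlap in the ATP8 values was not tested.

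Complex I (NADH dehydrogenase) is the entry point of electrons from NADH, and its 7 mitochondrially encoded subunits lie in the proton-pumping membrane arm. ND4L (ENSFCAG00000032069) was the highest of them in every line, with 4595, 5594 and 5018 FPKM in Feline ASC 1, 2 and 3. ND6 (ENSFCAG00000032075) had 3300.2, 4134 and 3458 FPKM. ND6, the light-strand mRNA gene, was above the other 5 complex I genes in all 3 lines. The kit marked strand, but whether the counting used it is not given in the sources used here, so fragments from ND6 and from transcripts of the facing strand cannot be told apart.

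The remaining complex I genes were closer together. ND4 (ENSFCAG00000032070) had 2933, 3557 and 3299 FPKM in Feline ASC 1, 2 and 3. ND3 (ENSFCAG00000032067) had 2859, 3539.9 and 3091 FPKM. ND4 was above ND3 in all lines, by 73.7, 16.7 and 209 FPKM, so that their levels were nearly equal. ND5 (ENSFCAG00000032074), one of the antiporter-like pumping subunits together with ND2 and ND4, had 2359, 3005 and 2465 FPKM. ND1 (ENSFCAG00000032048), the subunit next to the ubiquinone site, had 2073, 2739.7 and 2161 FPKM. ND2 (ENSFCAG00000032052) had 2173, 2406 and 2475 FPKM, above ND1 in Feline ASC 1 and 3 and below it in Feline ASC 2. The order of ND5, ND2 and ND1 was thus not the same in all lines.

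Complex III (cytochrome bc1) moves electrons from ubiquinol to cytochrome c, and CYTB (ENSFCAG00000032077) is its mitochondrially encoded subunit. CYTB had 1634, 1809 and 1651 FPKM in Feline ASC 1, 2 and 3, the lowest of the 13 mRNA genes in every line. Its coefficient of variation was 5.68%. COX1 was 8.21, 8.87 and 7.78 times as high as CYTB in the respective lines.

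Averaged per subunit gene, complex I had 2899, 3568 and 3138 FPKM in Feline ASC 1, 2 and 3, a mean of 3202 ± 339 FPKM (SD, n = 3 lines). Complex III, with its single gene, had a mean of 1698 ± 96 FPKM. Complex IV had 7733, 9411 and 7881 FPKM and a mean of 8342 ± 929 FPKM. Complex V had 8034, 11371 and 11708 FPKM and a mean of 10371 ± 2031 FPKM. The order complex V, IV, I and III held in every line, but complex V exceeded complex IV by a ratio of only 1.04 in Feline ASC 1, against 1.21 and 1.49 in Feline ASC 2 and 3. The ratio of complex IV to complex I was steadier, with 2.67, 2.64 and 2.51. These orders describe levels per length. No test of them was run, since an exact sign-flip test of differences within 3 lines cannot give a two-sided p below 0.25.

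**Figure D2:**
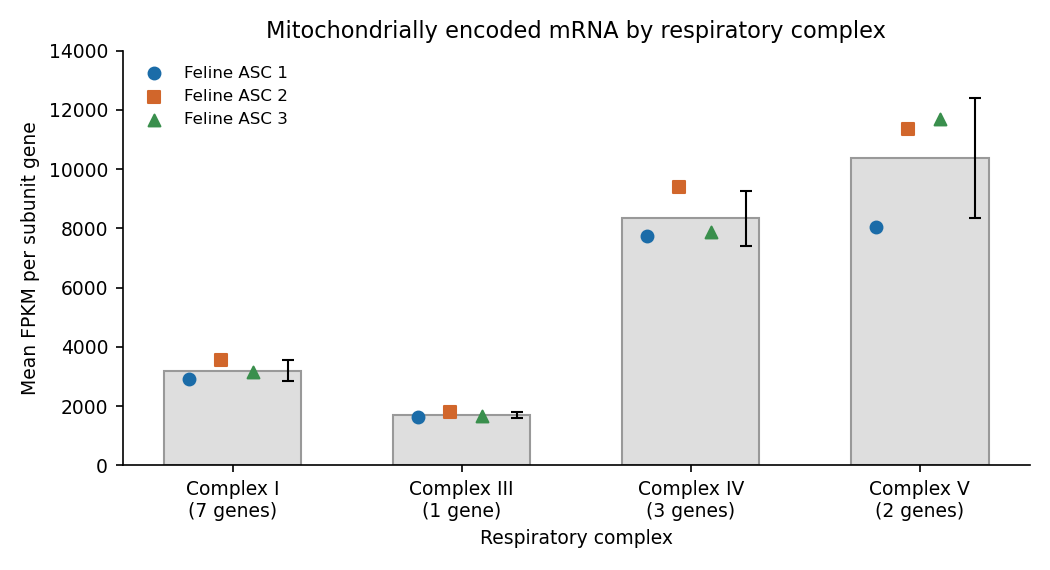
Mean FPKM per mitochondrially encoded subunit gene of each respiratory complex. Bars are means and error bars SD over the 3 lines, and points are Feline ASC 1 (circles), 2 (squares) and 3 (triangles). Complexes IV and V, at 7733 FPKM or more in every line, lie above complexes I and III, at 3568 FPKM or less.

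Shares of the 4 complex means do not depend on the scale between libraries. Complex V made up 39.6%, 43.5% and 48.0% in Feline ASC 1, 2 and 3, and complex IV made up 38.1%, 36.0% and 32.3%. Complex I made up 14.3%, 13.6% and 12.9%, and complex III 8.05%, 6.92% and 6.77%. Without the overlapping genes ATP8 and ND4L, the share of complex V was 46.6%, 44.4% and 48.1%, and that of complex IV was 34.4%, 36.2% and 33.1%. Feline ASC 1 had the lowest complex V share with these genes and Feline ASC 2 without them.

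The rRNA genes were far below the mRNA genes in these poly(A)-selected libraries. The 12S rRNA (RNR1, ENSFCAG00000032044), the RNA of the small mitochondrial ribosomal subunit, had 371, 694 and 432 FPKM in Feline ASC 1, 2 and 3. The 16S rRNA (RNR2, ENSFCAG00000032046), the RNA of the large subunit, had 381, 617 and 455 FPKM. Feline ASC 2 had the highest value for both, on the deposited scale and on each of the 4 other scales tried. The ratio of 16S to 12S rRNA was 1.03, 0.889 and 1.05, with a mean of 0.989 ± 0.088 (SD, n = 3 lines), so that neither was above the other in all lines. The 2 rRNA genes held 1.21%, 1.66% and 1.24% of the mitochondrial FPKM. CYTB, the lowest mRNA gene, was 4.40, 2.61 and 3.82 times as high as 12S rRNA. Because rRNA was removed during library preparation, these values are what remained after selection and are not the levels of rRNA in the cells.

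Among the 15 mRNA and rRNA genes ranked by mean FPKM, 9 of the 14 neighbouring pairs had the same order in every line. The 5 pairs that did not were ATP6 and ATP8, ATP8 and COX3, ND5 and ND2, ND2 and ND1, and the 2 rRNA genes. The highest mRNA mean was 8.31 times the lowest.

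The spread between lines of the mitochondrial mRNA genes was near that of abundant genes in general. The median coefficient of variation of the 13 mRNA genes was 10.9%, beside 10.8% for the 918 genes with a mean of 100 FPKM or more. A spread of at least 1.5, as the highest line divided by the lowest on FPKM + 1, was reached by 3 of the 37 members, and by 15.5% of all 21529 genes. Of the 15 members above 0 the same 3 reached it, beside 24.7% of the genes with a mean of 100 FPKM or more. They were ATP8 with a ratio of 2.14, 12S rRNA with 1.87 and 16S rRNA with 1.62. The other 12 mRNA genes had ratios of at most 1.32. With TPM, in which each line is rescaled to the same total, 16S rRNA had 1.46, and ATP8 had 1.74 to 2.14 over the 5 scales. Without Feline ASC 1 or without Feline ASC 2, 1 member reached 1.5. It was 12S rRNA in the former case and ATP8 in the latter.

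**Figure D3:**
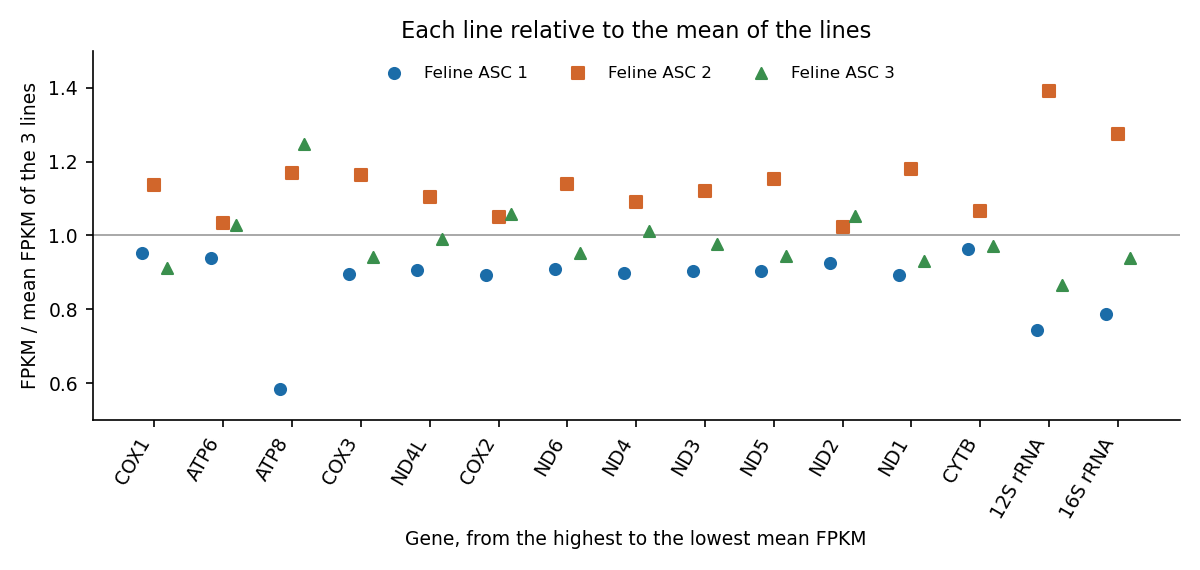
FPKM of each line divided by the mean of the 3 lines, for the 15 genes above 0, ordered by mean FPKM. ATP8 in Feline ASC 1 and the rRNA genes in Feline ASC 2 lie farthest from the other lines. Feline ASC 2 lies above 1 for all 15 genes on the deposited scale. It was highest for 10 of the 13 mRNA genes as deposited and for 7 with TPM. As deposited, it was highest for 49.3% of the 918 genes with a mean of 100 FPKM or more.

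On the deposited scale, Feline ASC 2 was highest for 10 of the 13 mRNA genes and Feline ASC 3 for ND2, COX2 and ATP8. Feline ASC 2 was highest for 7 with TPM and for 5 with quantile normalization. In the latter, COX1 and ATP6 were tied for the highest line and were not counted. Of the 13347 genes above 0 in every line, 30.5%, 40.5% and 29% were highest in Feline ASC 1, 2 and 3. Of the 918 genes with a mean of 100 FPKM or more, the shares were 23.6%, 49.3% and 27%. Both sets of shares are for deposited FPKM and were not computed on the other scales. They cannot be set beside the TPM or quantile counts. Feline ASC 1 was highest for 0 of the 13 mRNA genes as deposited, for 1 with TPM and for 2 with quantile normalization. Setting the 13 mRNA genes of each line to the same sum fixes their balance between lines by construction, and Feline ASC 1, 2 and 3 were then highest for 8, 3 and 2 genes. With ATP8 left out of that sum, the counts were 2, 5 and 6.

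Between Feline ASC 2 and Feline ASC 1, the median log2 ratio of the 13 mRNA genes was 0.28 (a ratio of 1.22) on the deposited scale, and the median of the 918 genes with a mean of 100 FPKM or more was 0.07. The difference of 0.21 is not changed by a common scale factor, but with quantile normalization it was 0.11. As deposited, 13 of the 13 mRNA genes were above the median of the abundant genes. With quantile normalization 10 were above it, and 7 were higher in Feline ASC 2 than in Feline ASC 1. That method gives genes of equal rank the same value. COX1 and ATP6 had equal ranks in Feline ASC 1 and 2, so they could not count as higher in either line. These ties also enter the median behind the 0.11. Rescaling to TPM shifted the median of the abundant genes between these lines by -0.15 on the log2 scale. For Feline ASC 3 against Feline ASC 1, the median log2 ratio of the mRNA genes was 0.11, that of the abundant genes was 0.03, and 11 of the 13 mRNA genes were above the latter. For Feline ASC 2 against Feline ASC 3, the medians were 0.16 and 0.04, and 9 of the 13 were above the latter. Each line had 1 library, so these differences have no replicate error to be set against.

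Ratios between genes of the same line are free of the scale between libraries. ND6 to ND5, neighbours that face each other on opposite strands, gave 1.40, 1.38 and 1.40 in Feline ASC 1, 2 and 3. This was the narrowest range of the plotted pairs (1.02-fold). Whether the counting used strand is not known, so the ND6 values may hold fragments of the facing strand. ATP6 to COX3, which follow each other with no tRNA between them, gave 1.81, 1.54 and 1.89. ND2 to ND1 gave 1.05, 0.878 and 1.15. As shares of the 13 mRNA genes, ND4 was between 4.57% and 4.79% in all lines and ND4L between 7.10% and 7.51%. COX1 made up 21.9%, 20.6% and 18.2%, and ATP8 9.14%, 14.4% and 16.9%. COX1, ATP6 and ATP8 together held 48.2%, 49.9% and 51.3%.

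**Figure D4:**
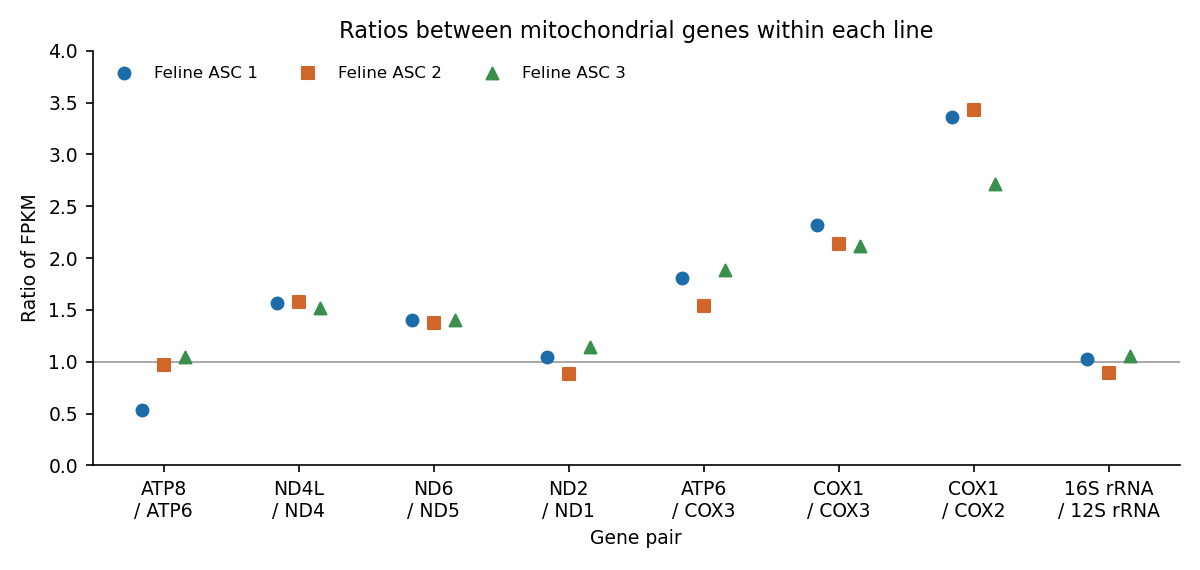
Ratios of FPKM between pairs of mitochondrial genes within each line, with Feline ASC 1 as circles, 2 as squares and 3 as triangles. The ND4L to ND4 and ND6 to ND5 ratios nearly coincide between lines, whereas the ATP8 to ATP6 ratio of Feline ASC 1, 0.534, lies below those of the other lines.

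The nuclear partners of these genes could be followed only in part, since symbols were at hand for 1811 genes. Among 11 genes with the name of a nuclear respiratory chain subunit, means ranged from 12.6 to 406 FPKM with a median of 95.2 FPKM, so all were below CYTB. The match was by name only, so it may include genes that are not subunits, such as NDUFA4L2 and ATP5SL. NDUFA4L2 was the 1 gene of the 11 with a ratio between lines of at least 1.5, with 71.0, 17.9 and 25.7 FPKM in Feline ASC 1, 2 and 3. The 6 mitochondrial ribosomal protein genes had means of 20.0 to 63.6 FPKM, and 0 of them reached a ratio of 1.5. Of 39 genes of mitochondrial RNA synthesis and processing, 1 had a symbol at hand, ANGEL2, with 10.2 ± 1.1 FPKM (SD, n = 3 lines). For the identity of the cultures, 1 of 9 stromal markers could be read, ENG (CD105), with 72.5, 117 and 73.9 FPKM. Low values, not above 1.03 FPKM in any line, were found for CD14, CORO1A, CD2 and ITGB2 of 5 leukocyte markers and for TEK of 4 endothelial markers, and 0 of 3 adipocyte markers had a symbol.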

How the data were processed

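Strand-marked libraries were prepared from poly(A)-selected RNA of 3 feline ASC cultures. The authors used HISAT for alignment of the paired reads (genome build ICGSC Felis Catus 8.0), Cufflinks for quantification and Cuffnorm for normalization across libraries. Each deposited file lists FPKM by gene. Tool versions, the annotation release and the treatment of overlapping genes, of strand and of nuclear copies of mitochondrial DNA are not given in the sources used here. The effect of these choices on the values was not tested.

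Values were used as deposited, with 1 added before ratios between lines, and summarized with Python 3.11.15, pandas 2.3.3 and numpy 2.4.6. Plots were drawn with matplotlib 3.10.9. Lines were numbered by the labelled columns of the supplementary table, which equalled the files at all 1997 genes at hand. It also gave the symbols of nuclear genes. All 13 mRNA and 2 rRNA genes were named, and tRNA genes were counted. The members, lists and ratio of 1.5 were chosen with earlier results of these data known. No test was run: lines had no replicate libraries, and 3 lines are too few for an exact test within lines to pass 0.05. The computations were checked on simulated lines with 200 changed genes.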

Additional observations from a re-analysis of the deposited data

How the results depend on the processing

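Of 60 values recomputed under alternative settings, 42 moved by less than the SD over lines or, for counts, by no more than 1.5 times. Many of the 42 could not have come out otherwise, so this number does not measure how robust the results are. Leaving out 1 of 3 lines cannot move a mean over lines by as much as the SD. Dropping the tRNA genes, all listed at 0, cannot change a sum. A filter at 15 FPKM drops only these genes and cannot change the count of members at a ratio of 1.5. The mitochondrial share of summed FPKM (10.9%) was 11.9% without other genes above 5000 FPKM and 9.43% without ATP8, a setting chosen after seeing the data. With the median in place of the mean per gene, complex I held 14.6% and complex IV 29.9%, and without ATP8 and ND4L complex I held 11.98%. The members with a ratio of at least 1.5 between lines (3) numbered 1 with equal mitochondrial mRNA totals, 1 at a ratio of 2, and 1 to 3 when a line was left out. The mRNA genes highest in Feline ASC 1, 2 and 3 (0, 10 and 3) numbered 1, 7 and 5 with TPM. With quantile normalization they numbered 2, 5 and 4, with COX1 and ATP6 tied and not counted. With equal mRNA totals they numbered 8, 3 and 2. With equal totals of the 12 mRNA genes other than ATP8, also chosen after seeing the data, they numbered 2, 5 and 6. As deposited, the shares of the 918 genes with a mean of 100 FPKM or more were 23.6%, 49.3% and 27%. Such shares were not computed on the other scales. Differences and ratios between genes were taken within each line, and no groups of lines were compared. Without counts, the depth behind each value is unknown.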
